A study of Danio rerio with 18 samples.

Results

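The genes that build and supply cilia were followed in eggs and ovarian follicles of zebrafish homozygous for a sinhcaf mutation. The SINHCAF protein belongs to the SIN3 co-repressor, which carries histone deacetylases. Members were taken by the start of their symbols: intraflagellar transport genes (ift), Bardet-Biedl syndrome genes (bbs), nephrocystins (nphp), tectonics (tctn), the ARL13 GTPases, mks1, cc2d2a, the rpgrip1 genes, axonemal dynein chains and their assembly factors (dnal, dnai, dnah, dnaaf) and tektins (tekt). This found 62 of the 25432 genes in the table. Of the 62, 23 reached 1 FPKM in 4 or more of the 18 libraries and were tested. The other 39 are given as levels, and calls for some of them from a fit without this filter are under Other observations. FPKM scales fragments by gene length and by mapped fragments, so levels of different genes are compared per length throughout.

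Messenger RNA came from mature eggs of sinhcaf-/- females (5 libraries) and of wild-type females (5 libraries), and from FG follicles of sinhcaf-/- females (4 libraries) and of wild-type females (4 libraries). The labels give the tissue as ovary, do not spell out FG, and give neither strain nor age. Each library is a pool from a single female, and replicates are therefore fish. Whether the same female gave eggs and follicles is not stated.

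Cilia are microtubule-based projections, built from a basal body. Intraflagellar transport carries cargo along the axoneme: the IFT-B complex with kinesin moves outward, and the IFT-A complex with dynein moves back. The BBSome is a coat that carries membrane proteins on these trains, and the transition zone, with the tectonics, MKS1, CC2D2A, RPGRIP1L and the nephrocystins, is the gate at the base. Motile cilia add dynein arms, whose chains are folded by cytoplasmic assembly factors, and tektins inside the doublet microtubules. Mature eggs bear no cilium, but early zebrafish oocytes form one in meiosis, somatic cells of the ovary can carry primary cilia, and stored egg transcripts can serve the embryo.

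Several features of the libraries bear on the values. Summed FPKM was 376795 to 464199 in mutant eggs, against 375178 to 404150 in wild-type eggs. It was 287120 to 305601 in mutant FG follicles, against 309889 to 340960 in wild-type FG follicles. Transcripts of the mitochondrial genome held 37.1% to 51.0% of that sum in mutant eggs and 33.1% to 37.9% in wild-type eggs. They held 7.64% to 13.8% in mutant FG follicles and 14.01% to 17.73% in wild-type FG follicles. The targeted gene sinhcaf lay between 0.184 and 0.351 FPKM in mutant eggs and between 0.361 and 1.59 FPKM in wild-type eggs, with no overlap and a log2 change of -0.42 (limma adjusted p = 0.21). It lay between 0.359 and 1.04 FPKM in mutant FG follicles and between 0.615 and 3.05 FPKM in wild-type FG follicles (log2 change -0.90, limma adjusted p = 0.0115), where wild-type library 4 lay inside the mutant range. Mutant FG libraries 1 and 3 were the closest pair of any group (r = 0.994 across tested genes on the log2 scale). With both averaged, 5 of the 23 members tested were called by genotype in FG follicles, against 8 otherwise, and 2000 of all genes against 2475. Among the genotype calls lost in this way, the averaged value is given for arl13a alone.

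Many transport and gate genes had transcripts at both stages, while most axoneme genes were low. The highest axoneme gene was dnal1, at 5.71 to 7.18 FPKM in wild-type FG follicles and 0.397 to 2.67 FPKM in mutant ones. In FG follicles of both genotypes dnaaf4 lay between 0.83 and 1.38 FPKM. Of 31 transport and gate genes, 21 were tested, and 10 of them reached an FPKM of at least 1 in every library: ift57, ift74, ift52, ift80 and ift172 of IFT-B, tctn1, tctn2, cc2d2a and rpgrip1l of the transition zone, and arl13a. Of 31 axoneme genes, 2 were tested, the dynein light chain gene dnal1 and the assembly factor gene dnaaf4. None of the 13 rows for axonemal dynein heavy chains, the motors of ciliary beating, exceeded 0.277 FPKM in any library, and none of the 4 tektins exceeded 0.788 FPKM. Of the 39 genes that were not tested, 3 reached 1 FPKM in any library and 16 stayed under 0.1 FPKM in all libraries. The transport gene ift88, a core IFT-B subunit, and the BBSome gene bbs4 were listed at 0 in all 18 libraries, and such a 0 can also come from a failed estimate.

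**Figure D1:**
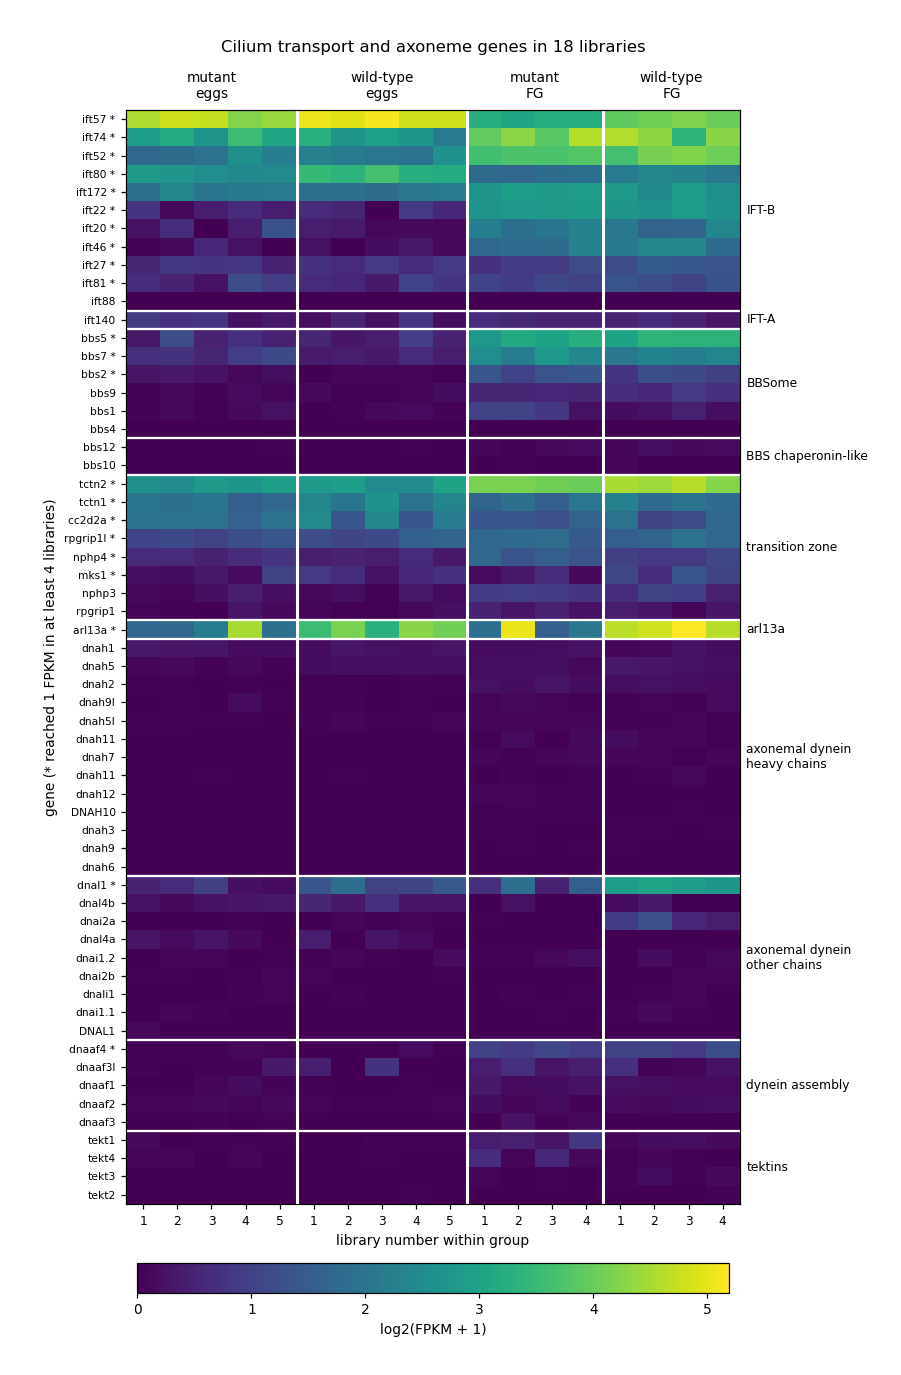
The 60 members reported by name, of 62 (rows, grouped by role) in 18 libraries (columns, mutant left of wild type within each stage), coloured by log2(FPKM + 1); an asterisk marks the 22 of them that were tested. Bright rows are ift57, ift74, tctn2 and arl13a, the dynein heavy chain rows are dark throughout, and mutant egg library 4 and mutant FG library 2 are bright for arl13a where the other mutant libraries are dim.

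The labelled tissue was checked against defining markers. The summed FPKM of 10 oocyte markers was 2625 to 3449 in mutant eggs, 2762 to 3171 in wild-type eggs, 2942 to 3166 in mutant FG follicles and 2942 to 3507 in wild-type FG follicles. The single markers were not alike at both stages: in mutants 3 of the 10 were higher in eggs and 7 lower (limma adjusted p under 0.05). Of all genes tested there, 23.4% were higher and 58.3% lower. In mutants dazl averaged 900 FPKM in eggs and 104 FPKM in FG follicles, and buc 29.3 and 743 FPKM. Single markers also differed by genotype. In FG follicles 3 of the 10 were called higher in mutants and 2 lower, and in eggs 2 higher and 0 lower. The FG mean of zp3b was 616 FPKM in mutants, against 266 FPKM in wild type, and that of h1m 879 FPKM, against 1301 FPKM. The overlapping sums therefore do not show like levels of single markers. Of 7 markers of multiciliated and motile-ciliated cells, 4 were matched in the table, foxj1a, foxj1b, gmnc and ccdc78, and none exceeded 0.0883 FPKM in any library. Their sum was at most 0.0404 FPKM in mutant eggs and at most 0.0883 FPKM in wild-type eggs, 0.0523 to 0.0803 FPKM in mutant FG follicles and 0.0887 to 0.227 FPKM in wild-type FG follicles. Of the foxj1 genes, the master regulators of motile cilia, foxj1b was at 0 in all egg libraries of both genotypes, and foxj1a was at 0 in all mutant eggs and reached 0.0883 FPKM in wild-type eggs. In FG follicles gmnc was at 0 in all mutant libraries and reached 0.0784 FPKM in wild type, while ccdc78 averaged 0.0349 FPKM in mutants, against 0.0158 FPKM in wild type.

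Mutant females were compared with wild-type females at each stage to find which of these transcripts depend on genotype. A gene is called changed where limma, fitted on log2(FPKM + 1) over all genes tested, gave a Benjamini-Hochberg adjusted p under 0.05, and all log2 changes are on that scale, which draws the changes of low genes towards 0. In eggs, 4 of 23 members were called: bbs7 rose, and ift80, dnal1 and ift57 fell. Of all 10547 genes tested in eggs, 15.1% were called, 7.35% higher and 7.71% lower, so the members' share of 17.4% lay near the background. The members' split of 1 higher and 3 lower was 3 and 2 as TPM without mitochondrial genes, 3 and 3 with a pseudocount of 0.1, and 3 and 2 with the egg libraries fitted alone. In FG follicles, 8 of 23 members were called: 2 rose, with nphp4 the one reported by name, and arl13a, dnal1, ift57, mks1, ift80 and ift27 fell. Of all genes tested in FG follicles, 23.5% were called, 10.1% higher and 13.4% lower, and the members' share was 34.8%. The members' median log2 change was -0.04 in eggs, where that of all genes was 0.04, and -0.16 in FG follicles, where that of all genes was -0.05. Of the genes called in FG follicles, ift27, mks1, nphp4 and dnal1 reached the level for testing mainly through the group in which they were high. For dnal1, also called in eggs, this group was wild type at both stages. The members' counts are therefore not support for a direction.

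The counts of called members depended on single libraries. In eggs the count was 2 without mutant library 4, 1 without mutant library 5, and 2 without wild-type library 1, 2 or 3. In FG follicles it was 4 without mutant library 1, 4 with median-of-ratios scaling and 5 with mutant libraries 1 and 3 averaged. Scaling also moved the split of directions over all genes: 48.8% of calls in eggs were higher, against 38.6% with median-of-ratios scaling, 34.4% as TPM and 65.3% as TPM without mitochondrial genes. In FG follicles 42.9% of calls were higher, against 59.9% as TPM, a setting that moved the median log2 change of all genes to 0.08. None of the genotype calls of members changed direction under any setting.

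**Figure D2:**
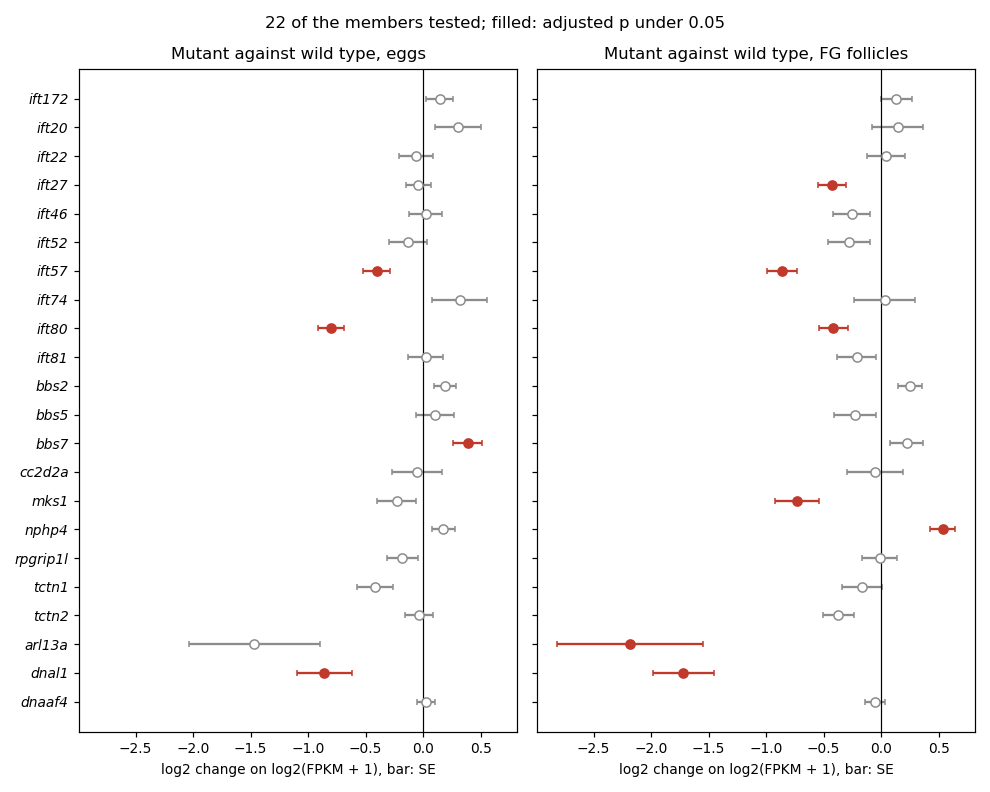
Log2 change of 22 of the 23 tested members, mutant against wild type, in eggs (left panel) and FG follicles (right panel) on log2(FPKM + 1); points are limma estimates, bars are SE, and filled red points have an adjusted p under 0.05. Filled points lie left of 0 for 3 genes in eggs and 6 in FG follicles, and right of 0 for bbs7 in eggs and for nphp4 in FG follicles.

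Among the IFT-B subunits, ift57 and ift80 were lower in mutants at both stages, and ift27 was lower in FG follicles. Of the 11 IFT-B genes 10 were tested, and the other 7 tested genes passed in neither stage. In bulk RNA of eggs or follicles, fewer cells that carry a transcript and less of it per cell cannot be told apart.

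The ift57 gene (ENSDARG00000021022), which encodes a peripheral IFT-B subunit, had the highest mean level of all members. Mutant egg libraries 1 to 5 held 22.3, 26.8, 25.6, 17.8 and 20.0 FPKM, against 32.1, 30.1, 33.5, 26.8 and 26.8 FPKM in wild-type egg libraries 1 to 5. Mutant egg library 2 reached the lowest wild-type libraries, and the other 4 mutant libraries lay below all of them. The log2 change was -0.40 (SE 0.12, limma adjusted p = 0.0226). This call was lost in 6 of 27 other settings, among them the egg libraries fitted alone (adjusted p = 0.0704) and the fits without mutant library 4 or 5 or wild-type library 1 or 3 (adjusted p = 0.0563 to 0.0676).

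In FG follicles ift57 stood at 8.48, 7.31, 8.2 and 8.35 FPKM in mutant libraries 1 to 4, against 14.1, 15.6, 17.3 and 15.1 FPKM in wild-type libraries 1 to 4. All mutant libraries lay well below all wild-type ones. This gave a log2 change of -0.86, a 1.82-fold fall in FPKM + 1 (SE 0.13, limma adjusted p = 8.51e-05), and it passed in all 27 other settings.

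The ift80 gene (ENSDARG00000038879), whose product is another peripheral IFT-B subunit, mutated in human skeletal ciliopathies, fell most clearly in eggs. Its levels were 5.85, 5.47, 4.85, 4.39 and 4.62 FPKM in mutant eggs, against 10.04, 9.26, 11.6, 8.63 and 8.15 FPKM in wild-type eggs. No mutant egg library reached a wild-type one. The log2 change was -0.80, a 1.74-fold fall in FPKM + 1 (SE 0.11, limma adjusted p = 6.67e-05), and it passed in all 27 other settings. In FG follicles its levels were 2.47, 2.29, 2.58 and 2.74 FPKM in mutants, against 3.39, 4.21, 3.99 and 3.22 FPKM in wild type. The groups again did not overlap, with a smaller log2 change of -0.41 (SE 0.13, limma adjusted p = 0.0251). That call was lost in 7 of 27 other settings, with adjusted p values up to 0.237 under median-of-ratios scaling.

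The small GTPase gene ift27 (ENSDARG00000099279), whose product sits on IFT-B and takes part in BBSome export, was low at both stages. It reached the level for testing mainly through the wild-type FG libraries, in which it was highest. In FG follicles it stood at 0.660, 0.866, 0.867 and 1.27 FPKM in mutants, against 1.26, 1.84, 1.68 and 1.51 FPKM in wild type. Mutant library 4 met the lowest wild-type library, and the other 3 mutant libraries lay below all wild-type ones. This gave a log2 change of -0.43 (SE 0.12, limma adjusted p = 0.0143), lost in 5 of 27 other settings, all scalings among them. In eggs the ranges were 0.428 to 0.779 FPKM in mutants and 0.526 to 0.854 FPKM in wild type (log2 change -0.04, limma adjusted p = 0.858).

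Of the IFT-B genes that did not pass, ift74, which encodes part of the tubulin-binding module, was the most abundant. Its levels were 5.47 to 10.7 FPKM in mutant eggs and 3.41 to 8.73 FPKM in wild-type eggs, and 13.3 to 23.5 FPKM in mutant FG follicles and 9.40 to 22.96 FPKM in wild-type FG follicles. Its log2 change was 0.32 in eggs (SE 0.24, limma adjusted p = 0.426) and 0.03 in FG follicles (SE 0.27, limma adjusted p = 0.95). The gene for the single IFT-A member, ift140, lay between 0.133 and 0.873 FPKM over all libraries and was not tested.

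The gene arl13a (ENSDARG00000052575) encodes a small GTPase of the ARF-like family. It was much lower in most mutant libraries, with an exception at each stage. Mutant egg libraries 1 to 5 held 2.26, 2.27, 3.50, 21.7 and 2.76 FPKM, against 10.8, 16.6, 8.87, 18.3 and 15.6 FPKM in wild-type eggs. Mutant egg library 4 lay above all wild-type libraries, and the other 4 below all of them. The log2 change in eggs was -1.47 (SE 0.57, limma adjusted p = 0.0908), so it was not called, and without mutant library 4 it was -1.99 (adjusted p = 0.0111).

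In FG follicles arl13a stood at 2.73, 31.7, 1.96 and 3.15 FPKM in mutants, against 24.1, 27.2, 35.4 and 23.7 FPKM in wild type. Mutant library 2 lay inside the wild-type range, and the other 3 were far below it. The log2 change was -2.18 (SE 0.63, limma adjusted p = 0.0176). It was -2.98 without mutant library 2 (adjusted p = 0.000327), and the call was lost without mutant library 1 (-1.94, adjusted p = 0.0571), without mutant library 3 (-1.82, adjusted p = 0.0651) and with both averaged (-1.88, adjusted p = 0.061).

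The BBSome was represented by 6 genes, of which bbs2, bbs5 and bbs7 were tested. The beta-propeller subunit gene bbs7 (ENSDARG00000059911) stood at 0.657, 0.703, 0.449, 0.916 and 1.21 FPKM in mutant eggs, against 0.292, 0.342, 0.282, 0.549 and 0.315 FPKM in wild-type eggs. Wild-type egg library 4 lay above mutant library 3, and the other wild-type libraries lay below all mutant ones. This gave a log2 change of 0.39 (SE 0.13, limma adjusted p = 0.0494). With the replicate number as a block over all 18 libraries, which ties egg and FG libraries of the same number, the limma adjusted p was 0.06. The call was lost in 16 of 27 other settings in all. In FG follicles bbs7 ranged from 3.51 to 5.75 FPKM in mutants and from 3.25 to 4.19 FPKM in wild type (log2 change 0.22, SE 0.14, limma adjusted p = 0.29).

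The other tested BBSome genes did not pass. The gene bbs2 lay between 0.0833 and 0.282 FPKM in mutant eggs and between 0 and 0.0572 FPKM in wild-type eggs, with no overlap but with a log2 change of 0.19 (SE 0.09, limma adjusted p = 0.202). The phosphoinositide-binding subunit gene bbs5 ranged from 0.254 to 1.30 FPKM in mutant eggs and from 0.237 to 0.922 FPKM in wild-type eggs, and from 5.79 to 8.52 FPKM in mutant FG follicles and from 7.01 to 9.30 FPKM in wild-type FG follicles. Its log2 change was 0.10 in eggs (limma adjusted p = 0.767) and -0.23 in FG follicles (limma adjusted p = 0.416).

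At the transition zone, nphp4 was higher in mutant FG follicles and mks1 was lower. Both reached the level for testing mainly through the FG group in which they were high, so these calls are a description. The gene nphp4 (ENSDARG00000069014), whose product is a nephrocystin of the ciliary gate, stood at 2.29, 1.53, 1.96 and 1.5 FPKM in mutant FG follicles, against 0.989, 0.807, 0.812 and 1.15 FPKM in wild-type FG follicles. All mutant libraries lay above all wild-type ones. This gave a log2 change of 0.53, a 1.45-fold rise in FPKM + 1 (SE 0.11, limma adjusted p = 0.00176), and it passed in all 27 other settings. In eggs it ranged from 0.394 to 0.742 FPKM in mutants and from 0.281 to 0.555 FPKM in wild type (log2 change 0.18, limma adjusted p = 0.257).

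The gene mks1 (ENSDARG00000059657), which encodes a B9-domain protein and is mutated in Meckel syndrome, was at 0.116, 0.260, 0.558 and 0.0960 FPKM in mutant FG follicles, against 1.18, 0.592, 1.55 and 1.09 FPKM in wild-type FG follicles. The groups did not overlap, although mutant library 3 came close to wild-type library 2. The gene reached the level for testing mainly through the wild-type FG libraries. The log2 change was -0.74 (SE 0.19, limma adjusted p = 0.00906), lost only with median-of-ratios scaling (-0.54, adjusted p = 0.0613) among 27 other settings. In eggs mks1 was at 0.164, 0.132, 0.255, 0.119 and 1.04 FPKM in mutants, against 0.807, 0.598, 0.175, 0.491 and 0.646 FPKM in wild type. Mutant library 5 was the highest of all egg libraries, and the log2 change of -0.23 did not pass (SE 0.17, limma adjusted p = 0.421).

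The tectonic gene tctn2 had the highest level at the gate. It ranged from 15.2 to 16.6 FPKM in mutant FG follicles and from 18.04 to 23.8 FPKM in wild-type FG follicles, with no overlap and a log2 change of -0.37 that did not pass (SE 0.14, limma adjusted p = 0.0581). In eggs it ranged from 4.66 to 6.44 FPKM in mutants and from 4.54 to 6.97 FPKM in wild type (log2 change -0.04, limma adjusted p = 0.897).

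Among axoneme genes, dnal1 (ENSDARG00000034042), which encodes a light chain of the outer dynein arm, was lower in mutants at both stages. It reached the level for testing mainly through the wild-type libraries, in which it was high. Mutant egg libraries held 0.406, 0.529, 0.989, 0.164 and 0.115 FPKM, against 1.58, 2.68, 1.001, 1.12 and 1.72 FPKM in wild-type eggs. The groups did not overlap, although mutant library 3 lay just under wild-type library 3. This gave a log2 change of -0.86 (SE 0.24, limma adjusted p = 0.0195), and the call was lost without mutant library 4 or 5 or wild-type library 2 (adjusted p = 0.0518 to 0.0589).

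In FG follicles dnal1 stood at 0.614, 2.67, 0.397 and 1.98 FPKM in mutants, against 6.27, 7.18, 6.25 and 5.71 FPKM in wild type. Every mutant library lay below every wild-type one, and mutant libraries 2 and 4 were above mutant libraries 1 and 3. The log2 change was -1.72, a 3.29-fold fall in FPKM + 1 (SE 0.27, limma adjusted p = 0.000131), and it passed in all 27 other settings. The table also lists a separate gene DNAL1, at 0.0803 FPKM in mutant egg library 1 and at or below 1e-05 FPKM elsewhere, and how reads were shared between similar genes is not stated.

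The assembly factor gene dnaaf4, the other axoneme gene tested, did not pass. It ranged from 0.908 to 1.16 FPKM in mutant FG follicles and from 0.83 to 1.38 FPKM in wild-type FG follicles (log2 change -0.05, SE 0.09, limma adjusted p = 0.719). In eggs it stayed at or under 0.0779 FPKM in mutants and at or under 0.108 FPKM in wild type.

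**Figure D3:**
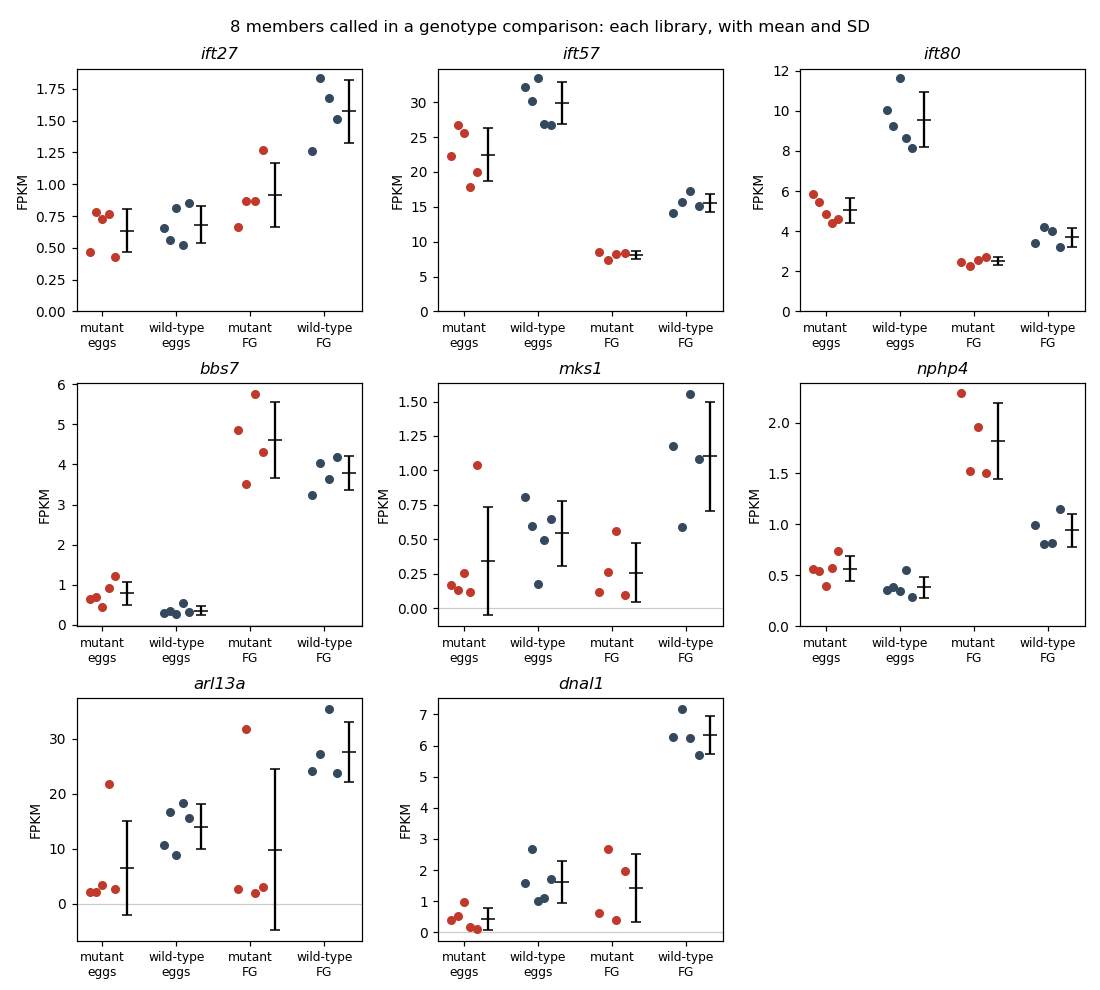
FPKM of 8 of the 9 members called in a genotype comparison, in each library (points; red, mutant; blue, wild type), with mean and SD beside each group of 5 egg or 4 FG libraries. Mutant points lie below all wild-type points for ift80 and dnal1 at both stages and for ift57 and mks1 in FG follicles, and above them for nphp4 in FG follicles, while arl13a has 1 high mutant library per stage.

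Groups that do not overlap were counted as well. In eggs, 2 members, bbs2 among them, were higher and ift80 and dnal1 were lower in every mutant library than in any wild-type library, 4 of 23 members, where 11.1% of all genes tested did not overlap, 4.7% higher and 6.37% lower. In FG follicles, nphp4 was higher and ift57, ift80, dnal1, mks1 and tctn2 were lower in this way, 6 of 23 members, where 29% of all genes tested did not overlap, 10.7% higher and 18.2% lower.

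The summed FPKM of all 62 members, given as levels without a test, lay between 61.4 and 82.7 in mutant eggs and between 86.0 and 92.4 in wild-type eggs. It lay between 110 and 145 in mutant FG follicles and between 153 and 168 in wild-type FG follicles. On the deposited FPKM scale the sums did not overlap at either stage. They were not rescaled for summed FPKM or mitochondrial share, so this is stated for that scale alone. The sums rest mostly on ift57, arl13a, ift74, tctn2 and ift52, which have the highest means. Of these, ift57 was called lower in mutants at both stages and arl13a in FG follicles. The genes ift74, tctn2 and ift52 were called at neither stage, and ift74 had log2 changes of 0.32 in eggs and 0.03 in FG follicles. The sums therefore do not show that the members as a whole were lower.

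Markers of other cells were followed beside the members. Of the tested markers, 2 of 7 for granulosa and 2 of 2 for leukocytes rose in mutant FG follicles, 1 of 6 for theca and stroma fell, and the 1 for erythrocytes did not pass. Of all genes tested in that comparison 23.5% were called, 10.1% higher and 13.4% lower, and these lists are too short to set against such shares. The 1 tested endothelial marker, cldn5b, did not pass in FG follicles and rose in mutant eggs (log2 change 0.53). Within mutants its mean was 7.03 FPKM in eggs, against 2.39 FPKM in FG follicles. Untested endothelial markers went both ways in eggs. The mean of kdrl was 0.169 FPKM in mutants, against 0.423 FPKM in wild type, and that of fli1a 0.191 FPKM, against 0.0905 FPKM. The rise of cldn5b is therefore not read as endothelial content. The summed FPKM of 13 granulosa markers was 110 to 215 in mutant FG follicles and 55.5 to 96.4 in wild-type FG follicles, and of these foxl2a was at 0 in 16 of 18 libraries. The sum of 8 leukocyte markers was 3.51 to 19.5 FPKM in mutant FG follicles and 2.68 to 3.95 FPKM in wild-type FG follicles, and that of 10 theca and stromal markers was 66.0 to 90.8 FPKM in mutant FG follicles and 79.8 to 109 FPKM in wild-type FG follicles. The leukocyte and theca sums overlapped between genotypes, and the granulosa sums did not. Each FG sum rested mostly on few genes, and cell content was not tested. For granulosa, cyp11a1 made up 92.6 of a mean 145 FPKM in mutants, against 52.6 of 72.1 FPKM in wild type. For theca, cyp17a1 made up 44.7 of 77.9 FPKM in mutants, against 52.7 of 92.1 FPKM in wild type. Its means were higher in eggs (mutant 69.9 FPKM, wild type 75.8 FPKM). Of the mutant leukocyte mean, 9.13 FPKM, cd74a held 3.99 FPKM and cd74b 4.15 FPKM. The macrophage marker mpeg1.1 was at 0 in all 18 libraries. In eggs the granulosa sum, nearly all of it cyp11a1, was 37.1 to 135 FPKM in mutants and 27.6 to 37.2 FPKM in wild type. In mutants cyp11a1 averaged 85.8 FPKM in eggs and 92.6 FPKM in FG follicles. There inha averaged 0.321 and 27.1 FPKM, igf3 0.195 and 14.2 FPKM, and lhcgr 0.103 and 4.38 FPKM. The egg sum is therefore a level of cyp11a1 and is not read as granulosa content. The part of these cells in the members' changes was not tested.

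The genotype differences at both stages were compared by their interaction. None of the 23 members passed, where 6.95% of all genes tested did, 4.23% with a positive and 2.72% with a negative interaction, and 5 members had an unadjusted p under 0.05. The lowest adjusted p was 0.117, for ift57, whose log2 change was -0.40 in eggs and -0.86 in FG follicles. For dnal1 the difference between the stages' log2 changes was 0.86 (SE 0.36, limma adjusted p = 0.159), and for arl13a it was 0.72 (SE 0.85, limma adjusted p = 0.665). Without wild-type FG library 2, 1 member passed. A call at a single stage is therefore not shown to be particular to that stage for any member.

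Eggs were compared with FG follicles within each genotype. In mutants 17 of 23 members were called, 2 higher and 15 lower in eggs, where 81.7% of all genes tested were called, 23.4% higher and 58.3% lower. In wild type 20 were called, 2 higher and 18 lower, where 82.9% of all genes tested were called, 22.1% higher and 60.8% lower. For all genes the median log2 change was -0.79 in mutants, against -0.85 in wild type. Median-of-ratios scaling put it at -0.09 in mutants and -0.10 in wild type, so that changes are read relative to these medians. Groups did not overlap for 2 members higher and 14 lower in eggs in mutants, where 74.8% of all genes tested did not overlap, 20.9% higher and 54% lower. In wild type they did not overlap for 2 higher and 17 lower, where 76% of all genes tested did not overlap, 19.9% higher and 56.2% lower. Of the 23 members, 12 had fewer than 4 egg libraries at 1 FPKM or more. Of these, 11 had at least 4 FG libraries at that level and were tested through them. Their falls in eggs follow in part from the filter, and these counts are a description. Relative to the median, 11 members were above and 12 below in mutants, and 10 above and 13 below in wild type. With median-of-ratios scaling, 47.4% of all calls were higher in eggs in each genotype, against 28.7% in mutants and 26.7% in wild type on the FPKM scale. The members' calls were then 4 higher and 11 lower in mutants and 5 higher and 11 lower in wild type.

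The genes ift57 and ift80 stood out as the called members that were higher in eggs. The level of ift57 was 22.5 ± 3.77 FPKM in mutant eggs (SD, n = 5) and 8.09 ± 0.527 FPKM in mutant FG follicles (SD, n = 4), a log2 change of 1.36 (limma adjusted p = 5.55e-09). In wild type it was 29.9 ± 3.05 FPKM in eggs (SD, n = 5) and 15.5 ± 1.31 FPKM in FG follicles (SD, n = 4), a log2 change of 0.90 (limma adjusted p = 1.6e-06). For ift80 the levels were 5.04 ± 0.608 FPKM in mutant eggs (SD, n = 5) and 2.52 ± 0.189 FPKM in mutant FG follicles (SD, n = 4), a log2 change of 0.77 (limma adjusted p = 9.81e-06). In wild type ift80 was at 9.54 ± 1.37 FPKM in eggs (SD, n = 5) and 3.70 ± 0.470 FPKM in FG follicles (SD, n = 4), a log2 change of 1.16 (limma adjusted p = 4.81e-08). Both genes were higher in eggs under every setting, and their egg and FG libraries did not overlap in either genotype.

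With a pseudocount of 1, the falls of bbs5, ift22, ift46, ift52 and bbs7 in eggs were among the largest. Of these, ift52 reached 1 FPKM in every egg library, bbs5 and bbs7 in 1 egg library each, and ift22 and ift46 in 0, so 4 of the 5 were tested through their FG levels. The level of bbs5 was 0.596 ± 0.420 FPKM in mutant eggs and 7.30 ± 1.18 FPKM in mutant FG follicles, a log2 change of -2.40 (limma adjusted p = 2.49e-10), and in wild type it was -2.73 (limma adjusted p = 3.97e-11). The log2 change of ift22, which encodes a Rab-like GTPase on IFT-B, was -2.30 in mutants and -2.19 in wild type. The core IFT-B genes ift46 and ift52 fell by 1.72 and 1.65 in mutants and by 2.0 and 1.80 in wild type, and bbs7 fell by 1.65 in mutants and by 1.82 in wild type. All of these lay further below 0 than the median of all genes, and all were called in eggs against FG follicles under every setting in both genotypes. The order depended on the pseudocount: with 0.1, the changes of ift20 (-3.00 in mutants, -3.53 in wild type) and dnaaf4 (-2.92 in mutants, -3.23 in wild type) were beyond those of ift52 (-1.91 in mutants, -2.04 in wild type) and bbs7 (-2.45 in mutants, -3.11 in wild type).

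The gate genes cc2d2a and tctn1 depended on the scale. The log2 change of cc2d2a was 0.48 in mutants and 0.47 in wild type without passing, and with median-of-ratios scaling it was 1.15 and 1.26 and was called in both. That of tctn1 was 0.05 in mutants and 0.30 in wild type without passing, and 0.77 and 1.2 with median-of-ratios scaling, called in both. Median-of-ratios scaling also turned the stage changes of ift172, rpgrip1l and arl13a from negative to positive in both genotypes. In wild type the call of rpgrip1l reversed, with -0.37 (limma adjusted p = 0.0236) on the FPKM scale and 0.39 (limma adjusted p = 0.0029) under that scaling.

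**Figure D4:**
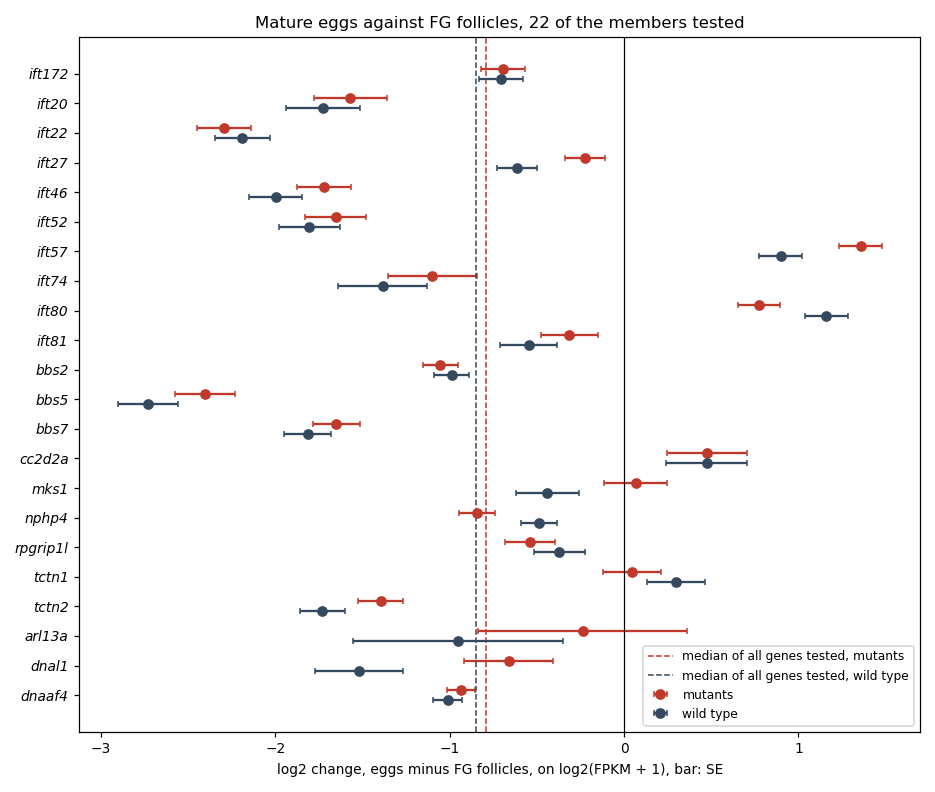
Log2 change of 22 of the 23 tested members, eggs against FG follicles, in mutants (red) and wild type (blue) on log2(FPKM + 1); points are limma estimates, bars are SE, and dashed lines are the medians of all genes tested, -0.79 in mutants and -0.85 in wild type. Only ift57, ift80, cc2d2a and tctn1 lie right of 0 in both genotypes, with mks1 right of 0 in mutants alone, and bbs5 and ift22 lie furthest left.

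Genes of the same machinery outside the symbol rule were taken from 5 lists. Of 153 symbols, 117 genes were matched and 56 were tested. In eggs 3 rose and 2 fell, 8.93% of those tested, and in FG follicles 4 rose and 8 fell, 21.4%, shares at or under the backgrounds of 15.1% and 23.5%.

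Among 10 other tested subunits of IFT and the BBSome, 2 fell in each stage. The IFT-A gene wdr35 was at 1.59 ± 0.240 FPKM in mutant eggs and 3.57 ± 0.339 FPKM in wild-type eggs (SD, n = 5 each; log2 change -0.82), and at 3.49 ± 0.177 FPKM in mutant FG follicles and 5.55 ± 1.03 FPKM in wild-type FG follicles (SD, n = 4 each; log2 change -0.53, limma adjusted p = 0.0047). The IFT-B gene ttc26 fell in eggs, to 10.3 ± 1.63 FPKM in mutants, against 17.8 ± 2.0 FPKM in wild type (log2 change -0.74, limma adjusted p = 0.00237). The IFT-B gene cluap1 fell in FG follicles, to 2.49 ± 0.204 FPKM in mutants, against 7.47 ± 2.37 FPKM in wild type (log2 change -1.24). In eggs cluap1 was at 1.39 ± 0.388 FPKM in mutants, against 0.914 ± 0.164 FPKM in wild type, and the interaction was called (1.55, limma adjusted p = 0.00031). The interaction was also called for traf3ip1, an IFT-B gene that passed in neither stage alone (0.74, limma adjusted p = 0.0455).

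Of 7 tested genes for the IFT motors, tctex1d2, a dynein-2 light chain gene, rose at both stages. It was at 11.2 ± 3.12 FPKM in mutant eggs and 3.58 ± 1.85 FPKM in wild-type eggs (SD, n = 5 each; log2 change 1.5), and at 6.34 ± 1.18 FPKM in mutant FG follicles and 1.48 ± 0.289 FPKM in wild-type FG follicles (SD, n = 4 each; log2 change 1.56). Of 6 tested transcription factor genes, rfx1b rose at both stages (log2 change 0.40 in eggs and 0.35 in FG follicles), and rfx7b fell in FG follicles (-0.65).

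Of 22 tested genes of the transition zone and basal body, 1 rose in eggs, and 2 rose and 2 fell in FG follicles. The planar polarity effector gene intu was at 3.37 ± 0.565 FPKM in mutant eggs and 1.07 ± 0.186 FPKM in wild-type eggs (SD, n = 5 each; log2 change 1.07), and its log2 change in FG follicles was 0.75. Its partner gene fuz rose in FG follicles (0.60, limma adjusted p = 0.0173), where the centriolar genes cep83 (-0.59, limma adjusted p = 0.0186) and ofd1 (-0.38, limma adjusted p = 0.0185) fell. Of 11 tested genes of motile axonemes, none passed in eggs and 3 fell in FG follicles, among them cfap161 (-1.03) and ruvbl1 (-0.43), whose product is also part of many other complexes.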

How the data were processed

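The deposited table holds FPKM values for 25432 genes in 18 library columns, all used. The authors' tools were HISAT2, HTSeq, Cufflinks and Trimmomatic, on the build GRCz11, as listed in the submitters' processing notes. Versions, annotation, strand use and the handling of shared reads are not given in the sources used here, and depth is unknown because FPKM holds no counts.

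The 10547 genes that reached 1 FPKM in 4 or more libraries were tested on log2(FPKM + 1) with limma 3.58.1 (lmFit, eBayes with trend) in R 4.3.3 (the data.table package, 1.17.8), with 4 group means and 14 residual degrees of freedom. Contrasts were mutant against wild type at each stage, their difference, and the stages within a genotype, with Benjamini-Hochberg adjustment over all genes tested and a threshold of 0.05. The script was tested on simulated data. Figures were drawn with matplotlib 3.10.9.

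The members and all gene lists were chosen with earlier results of these data known. Named are every member called in a genotype comparison, the most abundant other tested member of each role, the 5 largest stage changes each way, and called genes of the other lists (at most 4 per list); 3 genes are not reported here by name but stay in all counts, sums and fits. Settings tried were other pseudocounts, filters and scalings, TPM, the replicate block, each pair of groups alone and each library left out. Chosen after seeing the data were the average of mutant FG libraries 1 and 3 and the block nested within stage. Same-numbered egg libraries of both genotypes deviated together from their group means (r = 0.112 to 0.447 over 5 pairs). The replicate block treated this as pairing, with FG libraries of the same number in the same block, and the main fit did not. The labels state no pairing, and 4 of 10 egg libraries correlated best with their own number. Egg libraries 4 and 5 of both genotypes held 7682 to 7917 genes at 1 FPKM or more, and libraries 1 to 3 held 6929 to 7424. The part of this in the correlation was not tested. Gene order was taken from RefSeq's GRCz12tu, another build than the table's, so no coordinates are given.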

Additional observations from a re-analysis of the deposited data

Results flagged for a closer look

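A library that stood apart from the others of its group was looked for in 8 of the 9 members called in a genotype comparison, in 32 groups of 4 or 5 libraries, where chance marks about 1 group in 20. For arl13a, mutant egg library 4 held 21.69 FPKM, where the other mutant egg libraries held 2.26 to 3.50 FPKM. For the same gene, mutant FG library 2 held 31.65 FPKM, where the other mutant FG libraries held 1.96 to 3.15 FPKM. For mks1, mutant egg library 5 held 1.038 FPKM, where the other mutant egg libraries held 0.119 to 0.255 FPKM. For bbs7, wild-type egg library 4 held 0.5495 FPKM, where the other wild-type egg libraries held 0.282 to 0.342 FPKM.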

How the results depend on the processing

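Without a filter on low values, members called numbered 34 for eggs against FG follicles in mutants, 34 in wild type, 14 for genotype in FG follicles and 2 for the interaction, each of 60 fitted, where 57.9%, 54.9%, 17.5% and 4.36% of all genes fitted were called (3753 genes for genotype in FG follicles). All genes called for the interaction (733) numbered 473 as TPM, 469 as TPM without mitochondrial genes and 372 with a pseudocount of 0.1. Members called for genotype in FG follicles numbered 4 with median-of-ratios scaling and 5 with mutant FG libraries 1 and 3 averaged. With 1 library left out at a time, all genes called ranged from 1222 to 1740 for genotype in eggs, 1995 to 2503 for genotype in FG follicles, 562 to 843 for the interaction, and 8424 to 8646 in mutants and 8554 to 8782 in wild type for eggs against FG follicles. Members called then ranged from 1 to 5, 4 to 9, 0 to 1, 16 to 18 and 18 to 21. With the replicate block, 1721 genes and 3 members were called in eggs (bbs7 lost) and 2546 genes and 8 members in FG follicles; nested in stage, it gave 1948 genes and 3 members in eggs and 2772 genes and 7 members in FG follicles. Same-numbered FG libraries did not deviate together (r = -0.118 to -0.023 over 4 pairs; 0 of 8 libraries correlated best with their own number), so the FG libraries share only a number. Log2 changes that reversed were all of values near 0 or of eggs against FG follicles, and the cause was not tested. With median-of-ratios scaling these were arl13a (0.5459 in mutants, 0.1749 in wild type), ift172 (0.1513 and 0.2414), rpgrip1l (0.1034 and 0.39, called in wild type), ift27 (0.2094) and ift81 (0.1146) in mutants, and mks1 (0.05828) in wild type. In mutants the change of arl13a was 0.5597 without mutant FG replicate 2 and otherwise reached down to -0.7637 with 1 library left out. That of mks1 was -0.07579 as TPM, -0.02681 with the replicate block and -0.09388 without mutant egg replicate 5, and up to 0.1751 with another library left out. That of tctn1 was -0.3864 as TPM, -0.01403 with mutant FG libraries 1 and 3 averaged and -0.03253 without mutant FG replicate 3, and up to 0.1229 with another left out. The genotype change of ift27 in eggs was 0.003657 without mutant egg replicate 5 and as low as -0.07764 with another left out.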

Other observations

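Several members too low to be tested differed between genotypes in FG follicles when the fit was run without a filter on low values. The outer-arm dynein intermediate chain gene dnai2a stood at 0.0199 FPKM in mutant FG library 1 and at 0 in the other 3, against 0.878, 1.41, 0.485 and 0.321 FPKM in wild-type FG libraries 1 to 4 (log2 change -0.78, limma adjusted p = 0.000266). Nearly all dnai2a signal was thus in wild-type FG follicles, and in eggs it was at most 0.0190 FPKM in mutants, against 0.0664 FPKM in wild type. The BBSome gene bbs1 was at 1.01, 1.08, 0.760 and 0.181 FPKM in mutant FG follicles, against 0.127, 0.186, 0.373 and 0.139 FPKM in wild-type FG follicles (log2 change 0.52, limma adjusted p = 0.0108). The tektin gene tekt1 was at 0.315, 0.372, 0.223 and 0.788 FPKM in mutant FG follicles, against 0.0560, 0.120, 0.144 and 0.0934 FPKM in wild-type FG follicles (log2 change 0.35, limma adjusted p = 0.005). In all, 7 of 37 members below the level for testing that could be fitted were called in FG follicles, 4 higher and 3 lower, and 1 in eggs, dnah5, lower. This is 18.9% in FG follicles and 2.7% in eggs, where 13.5% and 2.31% of all fitted genes below that level were called, and 17.5% and 7.09% of all genes fitted, so the members lay near the background.

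The genes next to members in the order of GRCz12tu were looked at after values were seen, 6 tested genes on each side. No member of the 59 that were placed lies on the chromosome of sinhcaf. Over the 8 called members reported by name, 0 to 6 of 12 neighbours were called in eggs and 0 to 5 in FG follicles, where 15.1% and 23.5% of all genes were called. The count beside mks1, 6 of 12 in eggs and 5 of 12 in FG follicles, was the highest in eggs and tied for the highest in FG follicles. Its next gene, mrm1, a mitochondrial rRNA methyltransferase gene, was listed at 0 in all mutant eggs, against 0.969 to 2.75 FPKM in wild-type eggs, and reached at most 0.0962 FPKM in mutant FG follicles, against 7.27 to 8.28 FPKM in wild-type FG follicles. The gene tia1, for an RNA-binding protein, lay between 0.0701 and 0.248 FPKM in mutant eggs and between 3.94 and 4.55 FPKM in wild-type eggs, and between 0.0351 and 0.234 FPKM in mutant FG follicles and between 5.51 and 6.32 FPKM in wild-type FG follicles. Beside arl13a, 1 of 12 neighbours was called in eggs and 3 of 12 in FG follicles. Of these 12, zgc:101583 is given for its egg levels alone. It stood at 1.11, 1.27, 30.3, 20.6 and 1.05 FPKM in mutant eggs, against 28.0, 30.4, 27.0, 31.9 and 28.8 FPKM in wild-type eggs. Mutant egg library 4 was thus near wild type for both arl13a and this neighbour, while mutant egg library 3 was so for the neighbour and not for arl13a.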
